A study of Homo sapiens with 8 samples.

Results

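The genes described here are U2AF2 and 7 genes of the SR family of splicing factors and its relatives, SRSF1, SRSF2, SRSF3, SRSF5, SRSF6, SRSF11 and TRA2B. Every peak in the 4 deposited lists that shared at least 1 base with the window of one of these genes, on the strand of the gene, was taken as a member. The peaks were thus selected on position, while the genes were chosen by a rule written with earlier log2 folds and p values of these peaks known. This gave 213 peaks of 194003 listed in all. Libraries 1 to 4 contributed 19 of 25759, 108 of 118375, 37 of 20254 and 49 of 29615. No list held a peak on the opposite strand of any of the 8 windows.

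The libraries were 4 RBPMS eCLIP libraries, made with an RBPMS-specific antibody, set against 4 input libraries made without antibody. Both came from HUES6, an established human embryonic stem cell line of wild-type genotype grown in FTDA medium, labelled as control treatment. Crosslinking used UV light of 400 mJ/cm2 on around 20M cells per dish, which links protein to the RNA it touches, and the libraries were sequenced as paired ends of 75 nt. In eCLIP the RNA fragments that stay on the immunoprecipitated protein are sequenced, and the same lysate without immunoprecipitation serves as input. No table of RNA levels was used, so the identity of the cells rests on their label.

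RBPMS is an RNA-binding protein that recognises RNA with repeated CAC motifs and is known as a splicing regulator in smooth muscle. U2AF2 encodes the large subunit of the U2 auxiliary factor, which binds the polypyrimidine tract before a 3′ splice site and helps to recruit the U2 snRNP. SR proteins bind exons through RNA recognition motifs and draw in the splicing machinery through domains rich in arginine and serine. Many SR genes also control their own output by including exons that send the transcript to nonsense-mediated decay.

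All peaks of these genes that passed both thresholds for enrichment over input lay in U2AF2. Of its 59 listed peaks 24 were enriched, which means at least 8-fold over input (log2 fold of at least 3) with a −log10 p of at least 3, both being the authors' values. The 7 SR genes together had 154 listed peaks and none of these was enriched, although 7 passed the fold threshold alone and 1 the p threshold alone. Most SR peaks with read numbers held too few reads to pass both, and so did most such peaks of the whole series. Of its 155800 peaks with read numbers, 107359 had 3 to 5 immunoprecipitation reads, and passing took at least 7 in any library. One U2AF2 peak stood at a log2 fold between 6.36 and 8.90 in every library. Because of how the genes were chosen, the counts and folds are descriptions and carry no test.

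Library by library, U2AF2 had 10 enriched of 15, 9 of 24, 2 of 11 and 3 of 9 listed peaks in libraries 1 to 4. Over all listed peaks of the series the enriched shares were 15.9%, 5.38%, 12.6% and 12.7%. The U2AF2 shares were 66.7% (Wilson 95% interval 41.7 to 84.8), 37.5% (21.2 to 57.3), 18.2% (5.14 to 47.7) and 33.3% (12.1 to 64.6) in libraries 1 to 4. These intervals cover counting error only and treat neighbouring peaks of 1 transcript as independent, also where they abut. Each U2AF2 share lay above that of the whole list, on as few as 2 of 11 peaks in library 3 and 3 of 9 in library 4. The gene was chosen with these values known, so the intervals are no test against the whole list.

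The 7 SR genes had 0 enriched of 4, 84, 26 and 40 listed peaks in libraries 1 to 4. In the same order, a count of 0 allows a share of up to 75%, 3.57%, 11.5% and 7.5%. Each limit is 3 peaks over the number listed. In libraries 2, 3 and 4 it was below the share of the whole list, and in library 1 it was not. The upper ends of the Wilson interval, as used for U2AF2, were 49.0%, 4.37%, 12.9% and 8.76%. In library 3 this end lay above the 12.6% of the whole list, so the order there depends on the limit used. The genes were chosen with these values known and neighbouring peaks were treated as independent, so neither limit is a test against the whole list.

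**Figure D1:**
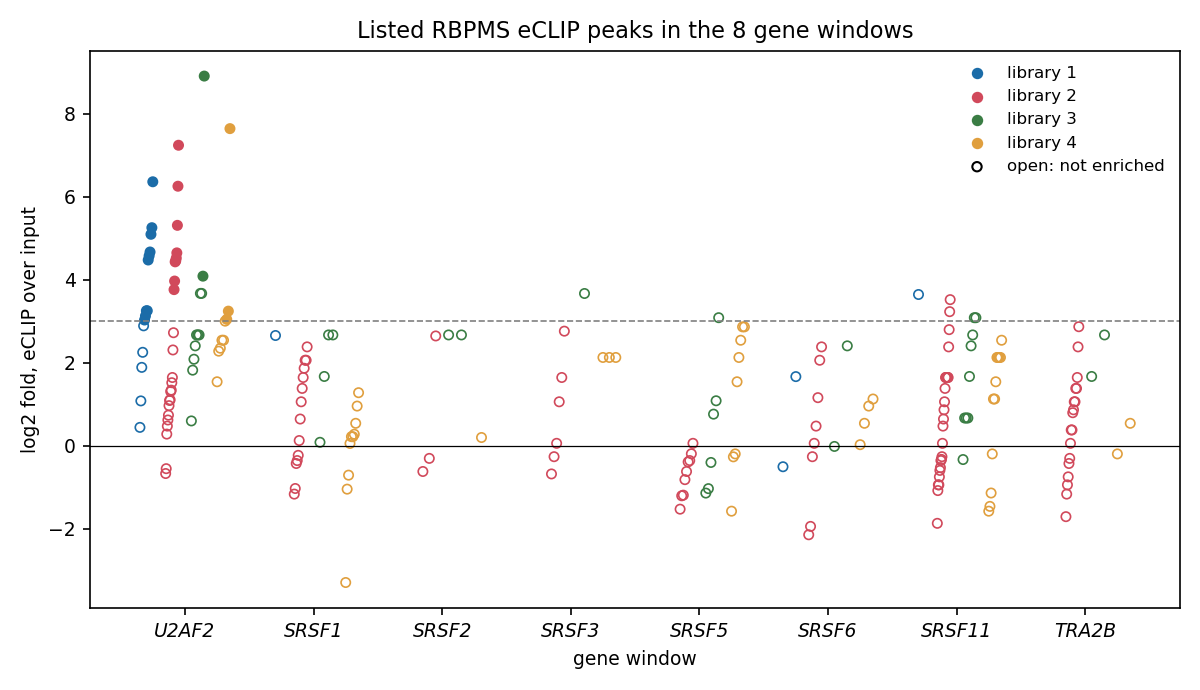
Log2 fold of eCLIP over input (vertical axis) for each of the 213 listed peaks in the 8 gene windows (horizontal axis), coloured by library, with filled points for enriched peaks and open points for the rest; the dashed line marks a log2 fold of 3. The filled points all lie in U2AF2, where they reach 8.90.

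Libraries 3 and 4 were counted as 1 sample. Peaks of 2 libraries were paired where they overlapped by at least 80% of the wider one and together held at least 40 immunoprecipitation reads. Over the 365 such pairs of libraries 3 and 4, the reads did not differ detectably beyond the sampling noise (chi-square test, 1.06 per degree of freedom, p = 0.225). The other 5 pairs of libraries gave 6.51 to 11.9 per degree of freedom. Most listed peaks did not enter this comparison. A mean ± SD is therefore over at most n = 3 samples, and nothing states that these came from separate cultures. The median immunoprecipitation reads per listed peak were 3 in library 3 and 4 in each of the other libraries.

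The leading U2AF2 peak lay on chromosome 19 of build hg19, 56181778 to 56181943 on the plus strand, 16.9 kb from the 5′ edge of the 22 kb window. Libraries 1 to 4 gave it a log2 fold of 6.36, 7.24, 8.90 and 7.64, with a mean of 7.29 ± 0.96 (SD, n = 3). On the linear scale these are 82.0, 151, 479 and 199 times the input. All 4 libraries were far above the threshold, and library 3 was the highest. Its −log10 p stood at the ceiling of 400 in libraries 1, 2 and 4 and at the ceiling of Fisher's exact test, 15.7, in library 3, so these p values have no order.

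The 4 lists placed this peak almost alike. The starts lay within 12 bases of each other and the ends within 30. A core of 124 bases, 56181790 to 56181913, was shared by all 4 peaks, whose widths were 124 to 166 bases. Exon and intron positions on hg19 were not used here, so the part of the U2AF2 transcript that holds the peak is not named.

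The read numbers behind the peak were worked out from the deposited log2 fold, which fixes the ratio of immunoprecipitation to input reads in lowest terms. For libraries 1 to 4 it was 439 to 17, 1157 to 8, 451 to 2 and 410 to 3. By the match between the deposited p values and the tests described in the methods, a −log10 p of 400 needs at least 5 reads on both sides, so library 4 would have held at least 820 immunoprecipitation and 6 input reads. The numerators are large in all 4 libraries. By the same match, the height of library 3 rests on an input of 2 or 4 reads.

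Among the 940 regions of the series that were enriched in all 4 libraries, the leading U2AF2 region ranked 14 by its mean log2 fold over samples. The median of these regions was 5.02. Ranked by a single library it stood at 67, 57, 3 and 31 for libraries 1 to 4, so its place was highest by library 3.

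The next highest U2AF2 peak of each library, at a log2 fold of 5.25, 6.25, 4.09 and 3.24, was lower in every case. In reads, the leading peak held at least 439 immunoprecipitation reads in library 1, against 225 summed over the 13 other U2AF2 peaks with read numbers. In library 2 it held at least 1157, against 674 over 20 others. It held at least 451 against 60 over 10 others in library 3, and at least 820 against 88 over 8 others in library 4. The leading peak therefore outweighed the sum of those others in every library.

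**Figure D2:**
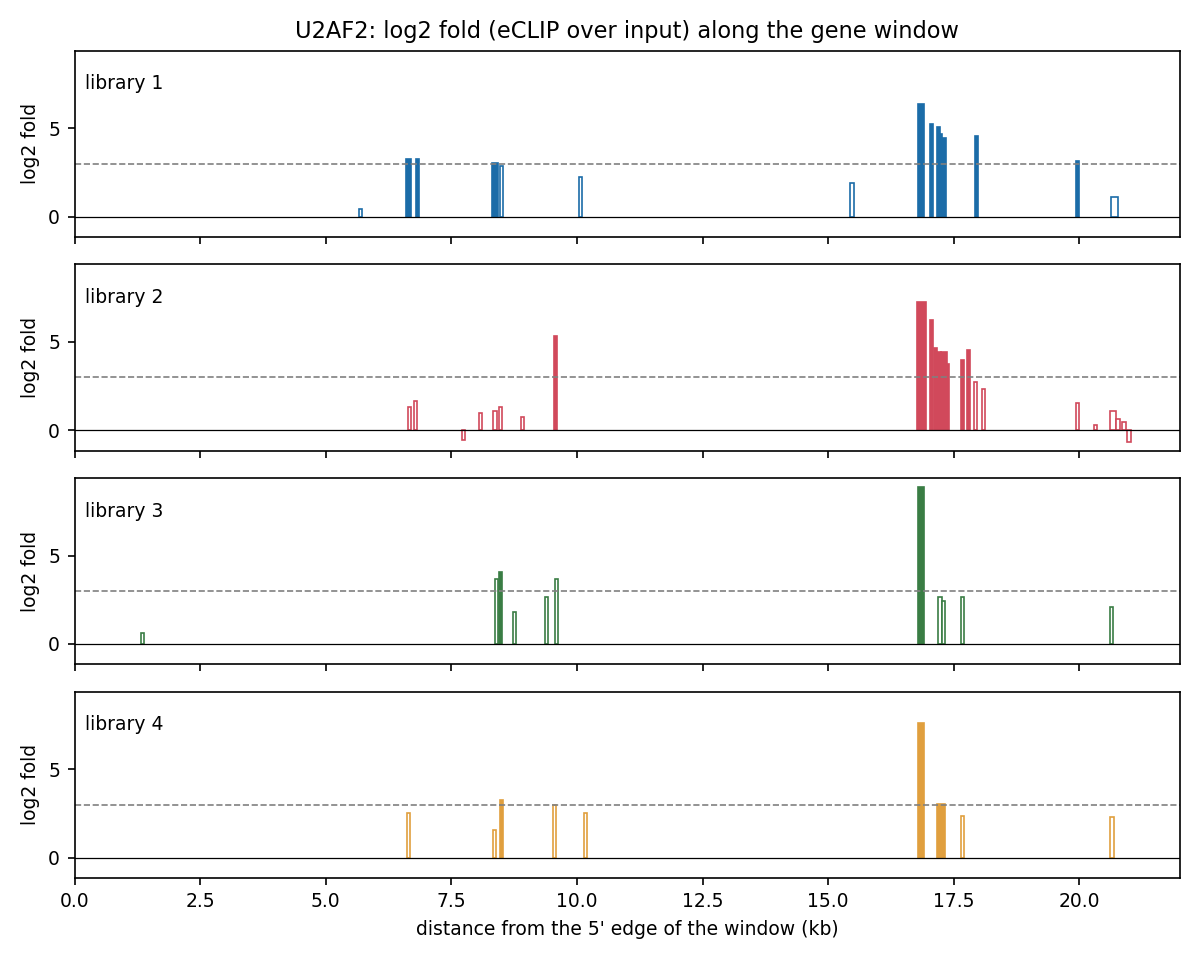
Log2 fold of eCLIP over input (vertical axis) of each listed U2AF2 peak against its distance from the 5′ edge of the window in kb (horizontal axis), 1 panel per library, with filled bars for enriched and open bars for other peaks and a dashed line at 3. The narrowest peaks are drawn wider than they are. The highest bar stands at 16.9 kb in all 4 panels.

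The peaks of U2AF2 fell into stretches parted by over 1 kb without a listed peak. The stretch with the leading peak, 56181778 to 56183104, spanned 1327 bases and held 23 peaks, of which 17 were enriched. By library, 1 to 4, the enriched peaks were 6 of 6, 8 of 10, 1 of 4 and 2 of 3. All of its 23 peaks had a log2 fold above 0, the lowest being 2.31. Some of these peaks abut without a gap and were still counted singly. They fill 56182170 to 56182340 in library 1 and 56182101 to 56182400 in library 2.

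Just downstream, the region 56182101 to 56182364 was enriched in libraries 1, 2 and 4, at a log2 fold of 5.09, 4.65 and 3.05. The mean was 4.26 ± 1.08 (SD, n = 3, the last sample being library 4 alone). Library 3 listed 2 peaks there, with 2.67 as its highest log2 fold on 9 immunoprecipitation and 3 input reads, and neither was enriched. The peak with the highest log2 fold in library 4 had 17 immunoprecipitation and 3 input reads, and that in library 2 had 48 and 2. These were the 2 reproducible regions of the 8 genes, that is, regions enriched in at least 3 of 4 libraries, out of 1699 in the series. With libraries 3 and 4 taken as 1 sample and at least 2 of 3 samples asked for, 3 regions qualified, all in U2AF2.

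Between them, 56182040 to 56182082 was enriched in libraries 1 and 2, at 5.25 and 6.25. Libraries 3 and 4 listed no peak there. Further on, 56182651 to 56182699 reached 3.97 in library 2, 56182774 to 56182802 reached 4.52 in library 2 and 56182929 to 56182967 reached 4.57 in library 1. Each of these was enriched in 1 library. The log2 folds of the stretch were thus highest at its 5′ end in every library.

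**Figure D3:**
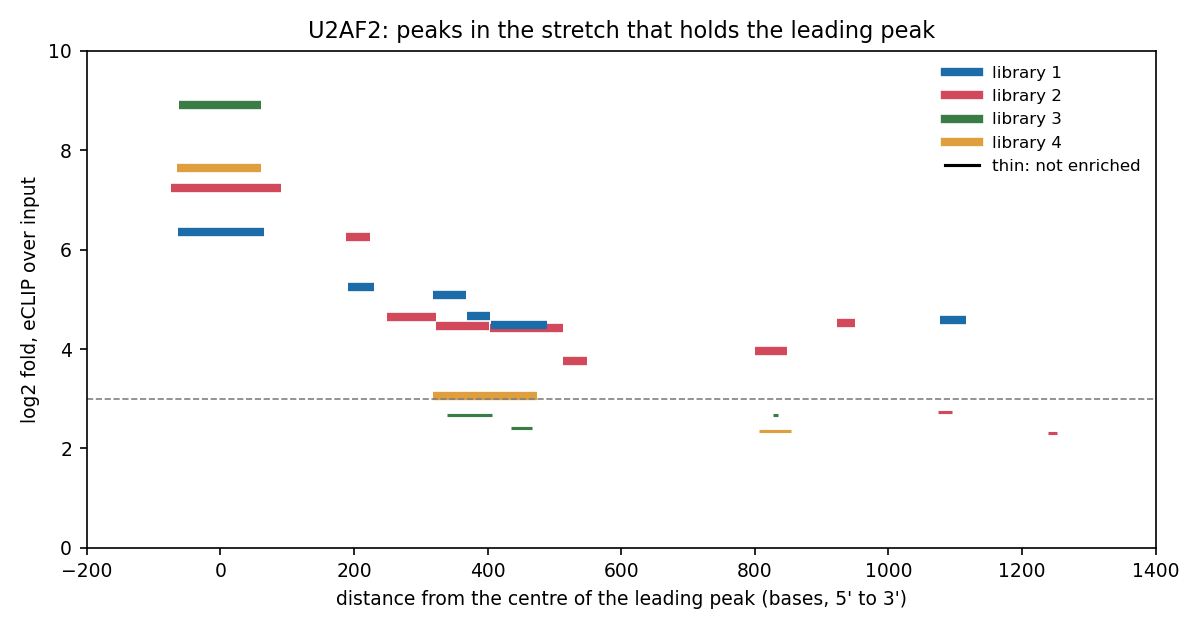
Log2 fold of eCLIP over input (vertical axis) of the U2AF2 peaks around the leading peak, drawn as lines from peak start to end against the distance from the centre of the leading peak in bases (horizontal axis), coloured by library, thick where enriched. All 4 libraries have their highest line at the centre, from 6.36 to 8.90.

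A second group of U2AF2 peaks lay nearer the 5′ edge, from 56170671 to 56175197, with 24 peaks of which 6 were enriched. Libraries 1 to 4 reached at most 3.25, 5.31, 4.09 and 3.24 there. The 5.31 of library 2, at 56174543 to 56174607, rested on 38 immunoprecipitation reads and 1 input read. At the same place libraries 3 and 4 passed the fold threshold, on 6 and 1 and on 11 and 2 reads, but had a −log10 p of 2.26 and 2.57 and hence no call. The region 56173452 to 56173523 was enriched in libraries 3 and 4, which count as 1 sample, at 4.09 and 3.24.

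Near the 3′ edge, from 56184933 to 56186022, only 1 of 10 peaks was enriched, at 3.13 in library 1 on 11 immunoprecipitation and 4 input reads. A peak there listed in all 4 libraries had log2 folds of 1.08, 1.09, 2.09 and 2.28 in libraries 1 to 4. In library 2 the last peak of the window was below input, at -0.67. The enrichment of U2AF2 was thus uneven along the window, and it was highest in 1 stretch. In the 28 regions that its listed peaks form, 5 were listed in all 4 libraries, 3 in 3, 4 in 2 and 16 in 1.

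The classical SR genes were listed with mostly low folds, although 1 peak of SRSF3 and 1 of SRSF5 passed the fold threshold. SRSF1, which binds purine-rich exonic enhancers, had 1, 14, 4 and 10 listed peaks in libraries 1 to 4, with log2 folds from -3.29 to 2.67. Its region listed in the most libraries with the highest mean, chromosome 17, 56078239 to 56078289 on the minus strand, had 2.67 in library 1 and 1.65 in library 2, on 4 and 3 immunoprecipitation reads. The highest −log10 p in SRSF1 was 1.72. None of its 24 regions was listed in more than 2 libraries.

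SRSF2, another activator that works through exonic enhancers, had the fewest peaks, 0, 3, 2 and 1 in libraries 1 to 4. The 2 peaks of library 3 both had a log2 fold of 2.67, and the one at chromosome 17, 74730416 to 74730431 on the minus strand rested on 3 immunoprecipitation reads and 1 input read. Library 4 had a single peak, at 0.22. No stretch of SRSF2 was listed in more than 1 library.

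SRSF3, the smallest classical SR protein and one that also takes part in mRNA export, had 0, 6, 1 and 3 peaks. Its highest log2 fold, 3.67 in library 3, passed the fold threshold but had a −log10 p of 2.26, on 6 immunoprecipitation reads and 1 input read. On chromosome 6, 36568469 to 36568544 on the plus strand, library 2 had 2.76 on 13 and 2 reads and library 4 had 2.13 on 3 and 1. Libraries 1 and 3 listed nothing at that place.

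SRSF5, a classical SR protein, had 0, 9, 6 and 8 peaks in libraries 1 to 4, and 14 of these 23 were below input. Its median log2 fold was -0.62 in library 2, 0.18 in library 3 and 1.84 in library 4. In library 2, 8 of 9 peaks were below input, and the highest was 0.06. The highest log2 fold of SRSF5, 3.09 in library 3, rested on 4 immunoprecipitation reads and 1 input read, with a −log10 p of 1.41. At chromosome 14, 70238277 to 70238375 on the plus strand, libraries 2, 3 and 4 had log2 folds of -0.39, 1.09 and 2.13, and so lay on both sides of 0.

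SRSF6, a classical SR protein that also binds exonic enhancers, had 2, 8, 2 and 4 peaks, and both of the regions of the 7 SR genes that all 4 libraries listed were its own. At chromosome 20, 42087348 to 42087408 on the plus strand, the log2 folds of libraries 1 to 4 were 1.67, 1.16, 2.41 and 0.54, with a mean of 1.43 ± 0.26 (SD, n = 3). The reads there were 3 and 3, 15 and 7, 5 and 2, and 4 and 4, immunoprecipitation before input, in libraries 1 to 4. These folds were above input in all 4 libraries and the highest −log10 p was 1.42. The other SRSF6 region that all 4 libraries listed, 42087202 to 42087305, had log2 folds of -0.50, -1.94, -0.01 and 0.03. It lay below input in libraries 1 and 2 and near it in libraries 3 and 4.

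SRSF11, an SR-related protein, had 1, 26, 9 and 12 peaks in a 48 kb window, which is 1 peak per kb, and SRSF1 had 4.14 per kb of its 7 kb window. At chromosome 1, 70691062 to 70691194 on the plus strand, libraries 2, 3 and 4 had log2 folds of 2.80, 2.41 and 1.13, on 20 and 3, 10 and 4, and 12 and 8 reads. The −log10 p of library 2 there, 3.66, was the highest of the 7 SR genes, and library 1 listed nothing. A further 5 SRSF11 peaks had a log2 fold of at least 3 with a −log10 p below 3, the highest being 3.67 in library 1 on 4 immunoprecipitation reads and 1 input read.

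TRA2B, an SR-like protein that binds GAA-rich exonic enhancers, had 0, 18, 2 and 2 peaks. Log2 folds ran from -1.70 to 2.87. The region that stood first by the number of libraries and then the mean, chromosome 3, 185651833 to 185651955 on the minus strand, had 0.87 in library 2 and 0.54 in library 4. Neither value is far from input, and the reads were 7 and 4 in library 2 and 3 and 3 in library 4.

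The SR genes were below input more often than the lists as a whole. Peaks with a log2 fold below 0 numbered 1 of 4, 36 of 84, 5 of 26 and 11 of 40 in libraries 1 to 4, or 25%, 42.9%, 19.2% and 27.5%. Over all listed peaks these shares were 2.84%, 15.6%, 4.29% and 7.42%. In U2AF2 only 2 of 59 peaks were below 0, both in library 2. The deposited −log10 p is 0 for every such peak, so a loss against input was not tested by the authors' values.

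**Figure D4:**
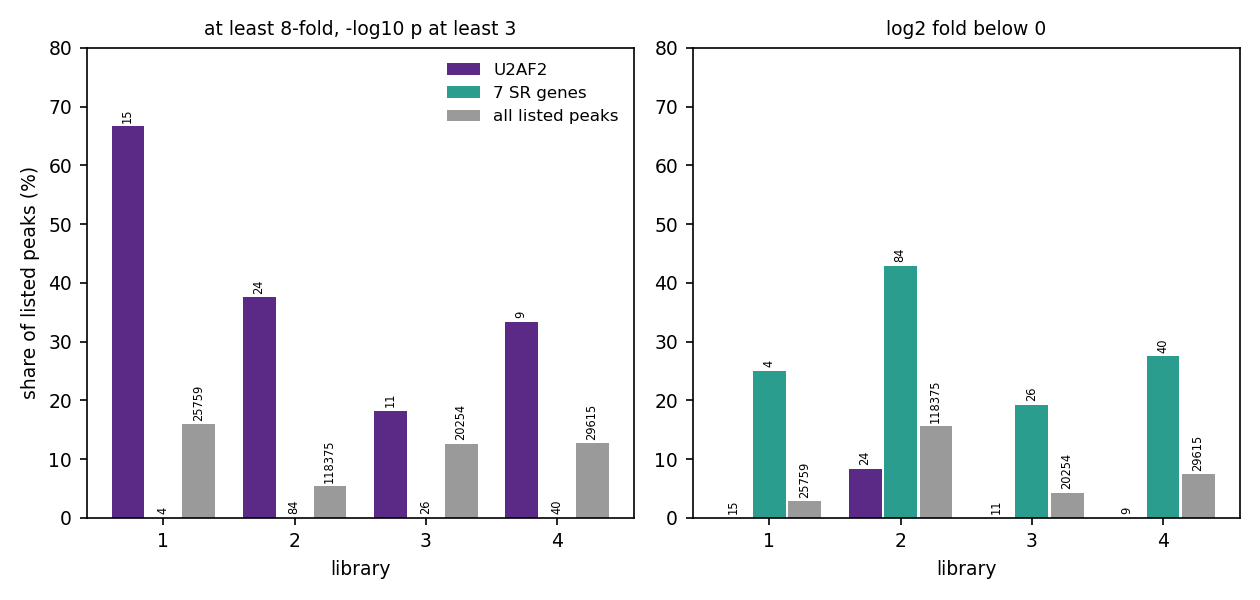
Share of listed peaks in percent (vertical axis) that were enriched (left) or below a log2 fold of 0 (right) in each library (horizontal axis), for U2AF2, the 7 SR genes and all listed peaks, with the number of listed peaks above each bar. The 7 SR genes have no enriched peak in any library, and 36 of their 84 peaks in library 2 were below 0.

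The median log2 fold of the SR genes' peaks was 2.17, 0.26, 1.67 and 0.75 in libraries 1 to 4. In U2AF2 it was 3.25, 1.58, 2.67 and 2.54. Over all listed peaks it was 3.25, 1.06, 2.67 and 2.13. In each library the SR median lay below that of the whole list, although library 1 gave only 4 SR peaks. The U2AF2 median equalled that of the list in libraries 1 and 3 and exceeded it in the others.

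Read numbers were recovered for 89 of the 154 SR peaks. Among these the median was 4 immunoprecipitation reads and the highest value 20, and 65 of the 89 had 3 to 5. Over all listed peaks with read numbers, 107359 of 155800 had 3 to 5, so such low numbers were not particular to the SR genes. The 65 SR peaks without read numbers, 53 of them below input, had log2 folds of at most 0.22. Their ratios in lowest terms give at least 22 immunoprecipitation reads for the largest, and 2 of them lay above 20. For U2AF2, read numbers were recovered for 51 of 59 peaks, with a median of 14 and a highest value of 124, the leading peak not among them. Over all listed peaks the median was 4. Reaching both thresholds over 1 input read took 7, 13, 8 and 10 immunoprecipitation reads in libraries 1 to 4. Among the SR peaks with read numbers, 0 of 3, 3 of 42, 1 of 20 and 1 of 24 had that many. Among those of U2AF2, 11 of 13, 19 of 20, 3 of 10 and 4 of 8 did. The exact share over all listed peaks was not counted, but the 107359 of 155800 with 3 to 5 reads fell short in every library. The rest of these 89 SR peaks held too few reads to meet both thresholds, whatever their input. Of the 89, 37 stood over 1 input read. Over more input reads, a low number can also go with a low fold. An SRSF1 peak of library 2, for example, had 10 reads over 5 and a log2 fold of 1.06. Low depth and a low fold were not told apart in these peaks.

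**Figure D5:**
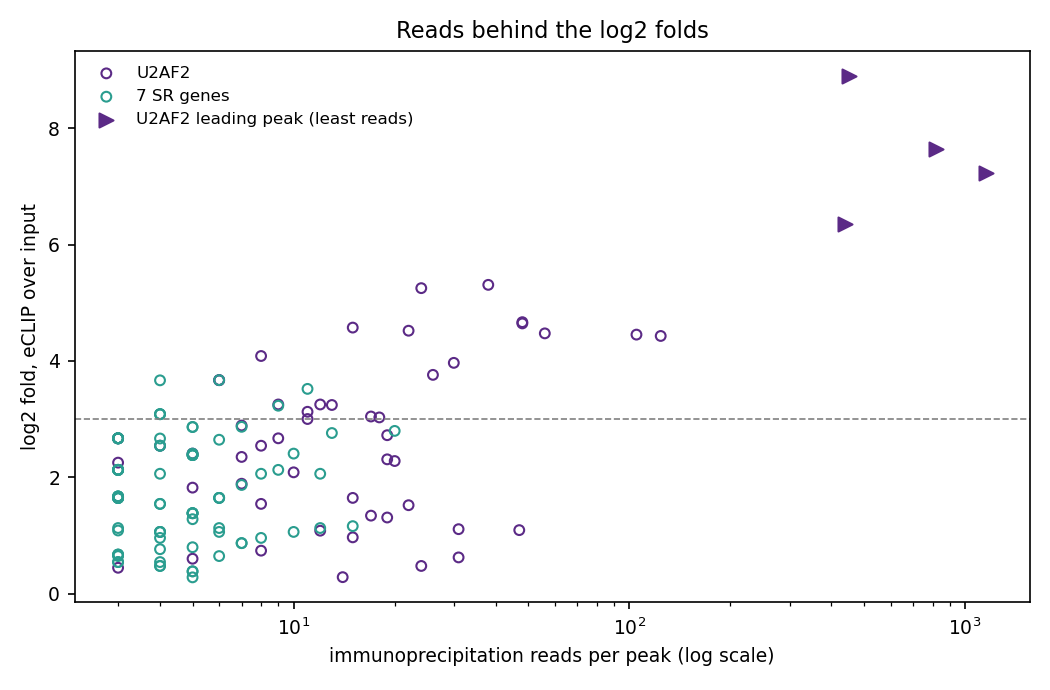
Log2 fold of eCLIP over input (vertical axis) against immunoprecipitation reads per peak (horizontal axis, log scale) for the peaks of U2AF2 and the 7 SR genes whose reads were recovered, with triangles at the least read numbers of the leading U2AF2 peak. The SR peaks shown end at 20 reads, and the leading peak begins at 439.

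With the fold threshold lowered to a log2 fold of 1, 1 SR peak was called, the SRSF11 peak of library 2 at 2.80. U2AF2 then had 10, 10, 2 and 4 called peaks in libraries 1 to 4. Over all listed peaks the shares at this threshold were 18.2%, 7.37%, 13.7% and 14%. The highest peaks that failed a threshold and the lowest that passed lay close to each other: the lowest enriched log2 fold was 3.03, and the lowest −log10 p of an enriched peak was 3.15, both in U2AF2.

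The listed peaks of the 7 SR genes formed 121 regions, and 96 of them were listed in a single library, 20 in 2, 3 in 3 and 2 in 4. Regions listed in at least 2 libraries made up 20.7% of the SR regions and 42.9% of the 28 U2AF2 regions, 12 in number. Over the whole series they made up 13.0% of 154731 regions. Regions listed in 1 library made up 79.3% of the SR regions, against 87.0% over the whole series. The RefSeq gene table of GRCh38 names pseudogenes after SRSF1, SRSF2, SRSF3, SRSF6 and SRSF11, 10 in all and 5 of them for SRSF3, and none after U2AF2, SRSF5 or TRA2B. On GRCh38 the table also has other genes overlapping SRSF1, SRSF2 and SRSF5. The placing of reads that fit several copies is not stated in the sources at hand, so the folds of genes with such copies are uncertain.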

How the data were processed

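Per the labels' protocols, 4 RBPMS eCLIP and 4 input libraries followed the published eCLIP procedure. The authors deposited 1 peak list per eCLIP library, with a −log10 p and a log2 fold of eCLIP over input per peak. The build was hg19, per the submitters' processing notes. Aligner, peak caller and the input behind each list: not given in the sources used here. The members and lists were chosen with earlier results of these data known. Peaks were taken by the gene windows, and enriched peaks sharing at least 1 base were merged into regions, which take the highest enriched peak of each library as their log2 fold. Named regions are all those enriched in at least 3 of 4 libraries and, for other genes, the region listed in the most libraries, ties going to the highest mean log2 fold. Reads per peak were worked back from log2 fold and −log10 p (of at least 0.1, tolerance 0.003) under Fisher's exact or the chi-square test, for over 99% of the eligible peaks of each library, and this was tested on simulated data. An input of 0 and of 1 read cannot be told apart. Gene windows differ in length from RefSeq genes on GRCh38 in SRSF1 (7 kb, 18.2 kb) and SRSF5 (46 kb, 4.86 kb). Python 3.11.15, pandas 2.3.3, numpy 2.4.6 and scipy 1.17.1 were used. No sequence was read, since no genome of this build was used here.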

Additional observations from a re-analysis of the deposited data

Results flagged for a closer look

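TRA2B had 18 listed peaks in library 2, and the other libraries had 0, 2 and 2. The distance of library 2 to the nearest other library made up 0.889 of the whole range. Library 2 also held the longest list, with 118375 peaks. Per 10000 listed peaks, TRA2B had 1.52 in library 2, against 0, 0.987 and 0.675 in libraries 1, 3 and 4, and the part of list length in the count was not tested. This was 1 of 16 quantities compared over the 4 libraries, libraries 3 and 4 taken singly, where chance gives about 0.8.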

How the results depend on the processing

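No paired analysis was possible because each log2 fold already sets an eCLIP library against input, which leaves a single group. U2AF2 was the 1 gene with a reproducible region under every alternative run. As no SR peak was enriched, only the looser fold could have added an SR gene, and it called 1 SR peak, in library 2. The 2 reproducible regions became 1 with the stricter p, 1 with the stricter fold and 1 with all 4 libraries asked for; the region left was the leading one. They became 4 with at least 2 libraries, 3 with at least 2 of 3 samples (libraries 3 and 4 as 1 sample), and 3 with each library left out in turn and 2 of the other 3 asked for. Enriched peaks averaged 7.17 per sample, from 4.83 to 8 under the alternatives and from 5.75 to 7.33 with each library left out. The mean log2 fold of the leading region lay between 7.08 and 7.75 with each library left out, that of the next U2AF2 region between 3.85 and 4.87, and that of SRSF6 between 1.12 and 1.74. The regions of SRSF1, SRSF2, SRSF3, SRSF5, SRSF11 and TRA2B rest on 1 or 2 samples. Depth limits the folds at 1 input read, which was the case for 37 of the 89 SR peaks and 8 of the 51 U2AF2 peaks with read numbers. Over all listed peaks it was the case for 74290 of the 155800 with read numbers, so this limit was not particular to the SR genes.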
